A study of Homo sapiens with 18 samples.

Results

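ESM1 and 7 further secreted regulators of blood vessel growth were followed across 6 groups of U2OS libraries. The members are ESM1, VEGFA, VEGFB, VEGFC, FGF2, THBS1, ANGPT1 and ANGPTL4, which are 8 of the 25296 genes in the authors' table of estimated counts, found there by gene symbol. ESM1 was chosen by its own readout, namely its larger cytarabine response in the line with wild-type DNMT3A. Its levels and differences are therefore given as a description, with no test. The other 7 are known regulators of angiogenesis.

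U2OS is an established human osteosarcoma line, and all 3 derived lines share that background. One line holds the retroviral vector MigR1 alone (EV), another expresses DNMT3A in its wild-type form (WT), and the other a mutant form (MUT). DNMT3A encodes an enzyme that sets new methyl marks on DNA. The mutation is R882C in the series text and R882H in the labels of the samples, and only the word mutant is used for it. Libraries came from untreated cells, termed vehicle in the series text, and from cells kept for 24 h in 10 µM cytarabine, which stalls DNA replication. Each of the 6 groups had 3 biological replicates. The introduced gene was overexpressed beside the cells' own DNMT3A, and whether a line was 1 clone or a pool of cells is not given in the sources used here.

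Library totals ran from 15.4 M to 21.9 M estimated counts. DNMT3A gave 26.2 to 27.5 CPM (counts over the library size, TMM-scaled) in untreated EV, 129 to 139 in untreated WT and 254 to 615 in untreated MUT, so both lines labelled as carrying added DNMT3A lay above the vector line. After cytarabine DNMT3A gave 45.5 to 49.6, 166 to 182 and 515 to 532 CPM. Replicates were least alike in untreated MUT and treated EV, with a coefficient of biological variation within the group of 0.216 and 0.132, against 0.0397 to 0.0694 in the other 4 groups. Of 10 osteoblast-lineage markers, 8 were in the table. RUNX2 lay at 36.0 to 49.8 CPM and SPARC at 888 to 1151 CPM as group means, while BGLAP, which encodes osteocalcin, had at most 8 counts in any library.

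Vascular endothelial growth factors (VEGFs) are secreted ligands that bind receptor tyrosine kinases on endothelial cells and drive vessel growth, and FGF2 acts through FGF receptors held together with heparan sulfate. Angiopoietin 1 stabilises vessels through the receptor TIE2. Thrombospondin 1 restrains vessel growth and activates latent TGF-beta. ESM1, also called endocan, is a dermatan sulfate proteoglycan named for endothelial cells, which secrete it, and tumour cells can also express it. 

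The start sites of 3 members are shown. Other members also differed in the next paragraphs, and FGF2, whose response differed between lines, is not among those shown. ESM1 was the member chosen for its WT response, ANGPTL4 rose from near 0 in every line, and THBS1 fell in every line. Each run is the 250 bases before the RefSeq start of the gene in GRCh38.p14, 5′ to 3′ on the gene's strand, with every CpG, the dinucleotide that DNMT3A methylates, in capitals. ESM1 lies at chr5:54985594-54985843 on the minus strand, THBS1 at chr15:39580829-39581078 on the plus strand and ANGPTL4 at chr19:8363905-8364154 on the plus strand.
ESM1: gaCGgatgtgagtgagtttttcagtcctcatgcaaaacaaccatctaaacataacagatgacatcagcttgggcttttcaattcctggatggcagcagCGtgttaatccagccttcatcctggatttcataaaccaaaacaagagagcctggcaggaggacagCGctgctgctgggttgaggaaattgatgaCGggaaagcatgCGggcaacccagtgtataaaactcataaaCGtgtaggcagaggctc
THBS1: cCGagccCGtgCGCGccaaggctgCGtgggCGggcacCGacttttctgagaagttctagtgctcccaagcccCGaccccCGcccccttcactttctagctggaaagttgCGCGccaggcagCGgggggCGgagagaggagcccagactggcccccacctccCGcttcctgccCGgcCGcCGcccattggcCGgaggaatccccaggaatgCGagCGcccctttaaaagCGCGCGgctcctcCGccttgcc
ANGPTL4: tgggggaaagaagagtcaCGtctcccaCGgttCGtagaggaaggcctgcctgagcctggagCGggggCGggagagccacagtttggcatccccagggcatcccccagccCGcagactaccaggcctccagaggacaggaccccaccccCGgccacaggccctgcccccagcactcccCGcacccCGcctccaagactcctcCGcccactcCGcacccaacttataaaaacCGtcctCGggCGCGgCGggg

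The ESM1 window held 6 CpGs, whereas the median of 35116 RefSeq promoters of the same length was 11 and 38.1% had fewer than 6. Of the 8 members, 6 matched the RefSeq table, and VEGFA and ANGPT1 did not. In the other 5 windows there were 16 CpGs for ANGPTL4, 22 for VEGFC, 24 for THBS1, 30 for VEGFB and 33 for FGF2. Thus ESM1 was the member with the fewest CpGs among the 6. The GC-box core GGGCGG was found in all 5 of those windows and not in that of ESM1, and 42.6% of all promoters hold it. The TATA-box letters TATAAA lay 32 bases before the start of ESM1 and 29 bases before that of ANGPTL4, and in none of the other 4 windows, against 10.7% of all promoters. The letters ACGTG, the core that hypoxia-inducible factors recognise, lay 18 bases before the start of ESM1 and 234 bases before that of ANGPTL4, against 18.5% of promoters. The AP-1 letters TGANTCA were in none of the 6 windows and in 6.57% of all promoters. Both strands were searched, and no 2 of these 4 motifs contain each other. The ACGTG of ESM1 covers 1 of its CpGs. These are letters in a window and not measured sites, and DNA methylation was not measured in these samples. The deposited ESM1 interval reaches 55022672, beyond the RefSeq start used here. That of ANGPTL4 starts at 8363289, before its window, and those of FGF2 and VEGFB start within their windows. Transcripts from other starts could thus be counted with these genes.

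ESM1 (chromosome 5, 54977864 to 55022672, minus strand, protein-coding) stood highest in the WT line, rose there after cytarabine, and lay lowest in the MUT line. In untreated EV its levels were 6.43, 8.53 and 6.76 CPM in replicates 1, 2 and 3, and in treated EV they were 6.21, 8.74 and 7.61 CPM. These 2 groups overlapped. In untreated WT the 3 libraries gave 14.1, 13.97 and 11.4 CPM, and in treated WT they gave 34.4, 46.4 and 41.3 CPM. Every treated WT library lay above every other library of the study. In untreated MUT the levels were 3.71, 2.26 and 5.65 CPM and in treated MUT they were 3.65, 4.69 and 4.401 CPM, again overlapping. Counts behind these values ran from 36 to 858 per library.

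**Figure D1:**
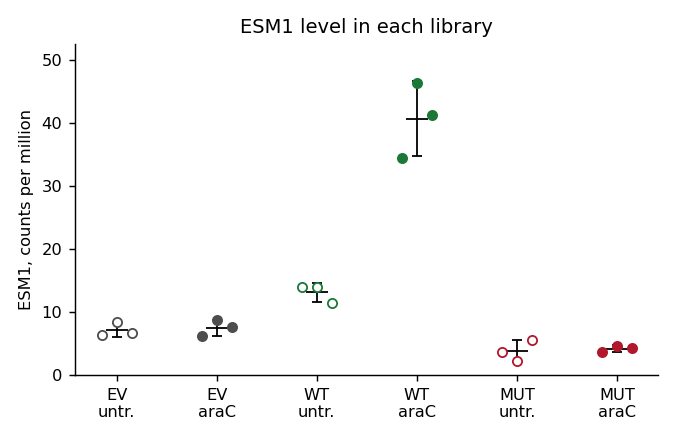
ESM1 in CPM (y axis, linear from 0) in each of the 18 libraries by line and treatment (x axis; untr., untreated; araC, cytarabine), with open points untreated, filled points treated, and bars the mean and SD of 3 replicates. The treated WT libraries lie at 34.4 to 46.4 CPM, above all others, while treated and untreated libraries overlap in EV and in MUT.

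The group means of ESM1 were 7.24 ± 1.13 CPM (SD, n = 3) in untreated EV and 7.52 ± 1.27 in treated EV. In WT they were 13.2 ± 1.49 untreated and 40.7 ± 5.995 treated, and in MUT 3.88 ± 1.70 and 4.25 ± 0.539. Put in order, treated WT came first, then untreated WT, then the EV pair and then the MUT pair. Only the neighbours within EV and within MUT overlapped. On the log2 scale the cytarabine difference was 1.63 (SE 0.187) in WT, 0.05 (SE 0.211) in EV and 0.12 (SE 0.234) in MUT. The WT difference exceeded that of EV by 1.58 (SE 0.281), and the MUT difference lay below that of WT, at -1.50 (SE 0.300).

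Between the lines without drug, ESM1 was 0.86 (SE 0.203) higher on the log2 scale in WT than in EV, and in MUT minus EV it was -0.89 (SE 0.228). With cytarabine WT exceeded EV by 2.44 (SE 0.197), and MUT minus EV was -0.82 (SE 0.217). The MUT to WT gap was -1.75 (SE 0.217) untreated and -3.26 (SE 0.207) treated. The 2 lines with added DNMT3A thus lay on opposite sides of the vector line. In MUT the ESM1 value moved with which library was left out. With replicate 3 of untreated MUT removed, its cytarabine difference in MUT was 0.45, and without untreated MUT replicate 2 it was -0.17. Over all alternatives the WT difference of ESM1 stayed between 1.52 and 1.81, and that in EV ranged from -0.07 to 0.23. ESM1 was chosen on this WT response in the same libraries, so these ranges are no independent support for it.

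Because ESM1 is named for endothelial cells, endothelial markers were read in the same libraries. Of 10 markers, 9 were in the table. PECAM1, ESAM and KDR, which mark the endothelial surface, had at most 9, 8 and 7 counts in any library. ERG, a transcription factor also found outside endothelium, was at 7.11 to 8.68 CPM as group means. Some other markers were called after cytarabine. Of the 6 that were tested, 1 was called higher and 1 lower in EV, 3 and 0 in WT, and 3 and 1 in MUT. Those are 16.7%, 50% and 50% higher and 16.7%, 0% and 16.7% lower in EV, WT and MUT. Of all tested genes, cytarabine raised 26.1%, 26.3% and 30.4% and lowered 22.9%, 22.7% and 25.9%. With so few genes the counts are not read as a result about endothelial markers. Their median log2 fold changes were 0.42, 1.06 and 0.77. The 3 that rose in WT were CDH5, the adhesion protein VE-cadherin (1.35), VWF, the von Willebrand clotting factor (1.73), and CLDN5, a tight-junction protein (1.09). In WT the mean of CDH5 was 0.476 CPM untreated and 1.21 treated, that of VWF 0.617 and 2.08, and that of CLDN5 1.72 and 3.66. VWF was called higher in EV (1.70) and MUT (1.62) as well. CDH5 (1.04) was called higher in MUT, and ROBO4 was called lower in EV (-0.76) and MUT (-0.42). TIE1 (1.29) was also among the risers in MUT. It reached the level of the low-count filter, 0.519 CPM, only in treated libraries, and untreated ones gave at most 0.490 CPM. TIE1 was thus tested only because it was high there, and its call carries no weight. The summed level of the 9 markers was 22.7 to 23.6 CPM in untreated EV, 20.2 to 22.5 in treated EV, 19.1 to 21.6 in untreated WT, 21.8 to 25.9 in treated WT, 25.4 to 28.2 in untreated MUT and 29.7 to 32.1 in treated MUT. The sum was highest in treated MUT, where ESM1 was low, and treated WT, where ESM1 was highest, overlapped untreated MUT. The part of these markers in the ESM1 levels was not tested. Each library is a bulk sample, so a change in some cells and a change in all of them cannot be told apart.

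The number of members that passed the test is read against all 18226 genes that passed a filter on low counts. A gene was called at an adjusted p under 0.05 in edgeR's quasi-likelihood test with Benjamini-Hochberg adjustment over all of these genes. Beside ESM1, 6 members were tested. ANGPT1 did not pass the filter. ANGPTL4 passed it only through treated WT and treated MUT, where it was high, so it is left out of the counts and described on its own. Of the other 5, FGF2 and THBS1 were called after cytarabine in every line, which makes 2 of 5. In EV, FGF2 was higher and THBS1 lower, where 26.1% of all genes were called higher and 22.9% lower. In WT both were lower, against 26.3% of all genes called higher and 22.7% lower. In MUT, FGF2 was higher and THBS1 lower, against 30.4% and 25.9%. A call among these 5 was thus no more common than among all genes.

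**Figure D2:**
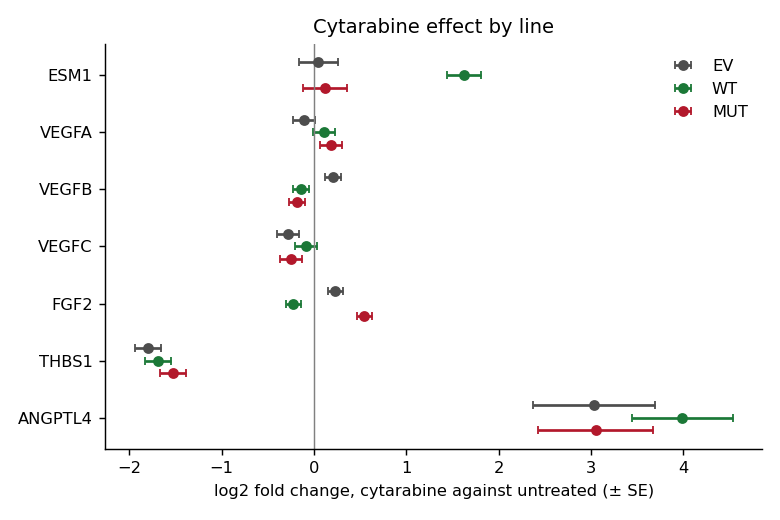
Log2 fold change of cytarabine against untreated cells (x axis, bars ± SE of the fit over 18 libraries) for the 7 members that passed the filter (y axis), in EV, WT and MUT. THBS1 lies between -1.79 and -1.53 in all 3 lines, ANGPTL4 above 3 in all 3, and ESM1 away from 0 only in WT.

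The 3 VEGF ligands moved little. VEGFA (chromosome 6, 43770184 to 43786488, plus strand), the main endothelial mitogen of the family, had group means between 89.6 ± 8.72 CPM (SD, n = 3) in treated EV and 104 ± 14.4 CPM in treated MUT, and every neighbouring pair of groups in this order overlapped. Its cytarabine log2 fold changes were -0.11 (SE 0.119, adjusted p 0.469) in EV, 0.11 (SE 0.118, adjusted p 0.462) in WT and 0.18 (SE 0.118, adjusted p 0.191) in MUT. It was called in none of the 12 contrasts. The untreated MUT libraries spread widely, with 109, 74.0 and 91.6 CPM, and without replicate 1 of that group the MUT change of VEGFA was 0.33 and was called (adjusted p 0.0244, edgeR). With libraries scaled by total counts alone it was 0.44 and also called (adjusted p 0.0075).

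VEGFB (chromosome 11, 64234538 to 64238794, plus strand), a ligand of FLT1, was lowest in untreated EV. The 3 untreated EV libraries gave 49.9, 44.8 and 44.1 CPM, the untreated WT libraries 58.2, 60.5 and 62.5 CPM, and the untreated MUT libraries 56.0, 61.3 and 75.8 CPM. The EV values did not overlap either of the others. On the log2 scale VEGFB was higher in WT than in EV by 0.38 (SE 0.0877, adjusted p 0.00622, edgeR) and higher in MUT by 0.47 (SE 0.0878, adjusted p 8.7e-04, edgeR). When the model held just the 2 untreated groups, the MUT value of 0.47 was not called (adjusted p 0.0554). After cytarabine the means lay close together, at 53.3, 54.7 and 56.5 CPM in EV, WT and MUT, and no line comparison of VEGFB was called. Its cytarabine changes were 0.20 (SE 0.0879, adjusted p 0.0616) in EV, -0.14 (SE 0.0865, adjusted p 0.176) in WT and -0.19 (SE 0.0862, adjusted p 0.0744) in MUT. The change in EV was called in 7 of the alternatives, among them without untreated EV replicate 1 (0.26), untreated MUT replicate 1 (0.20) or untreated MUT replicate 3 (0.21). The change in MUT was called without untreated MUT replicate 1 or 2, where it was -0.28 and -0.26, and without untreated WT replicate 2, where it was -0.23. It was also called with RLE factors, with DESeq2 (both -0.23) and with the authors' factors (-0.27).

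VEGFC (chromosome 4, 176683538 to 176792728, minus strand), a ligand of FLT4 and driver of lymphatic growth, ran from 14.96 ± 1.39 CPM (SD, n = 3) in treated EV to 21.1 ± 4.25 CPM in untreated MUT. The untreated MUT libraries gave 20.9, 17.0 and 25.5 CPM, a range that covered all untreated EV and WT libraries. The cytarabine changes of VEGFC were -0.28 (SE 0.119, adjusted p 0.0603) in EV, -0.09 (SE 0.117, adjusted p 0.556) in WT and -0.25 (SE 0.116, adjusted p 0.0756) in MUT, none of them called. Without untreated MUT replicate 2 the change in MUT was -0.42 and the EV change was -0.28, and both were called. Without that library VEGFC was also called higher in untreated MUT, by 0.38 over EV and 0.37 over WT. The EV change of VEGFC was called as well without untreated MUT replicate 3 (-0.27), in a fit of the 2 EV groups alone (-0.27) and with the authors' factors (-0.35). The MUT change was called as well with RLE factors (-0.29), in DESeq2 (-0.29) and with the authors' factors (-0.34).

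FGF2 (chromosome 4, 122826708 to 122898237, plus strand), basic fibroblast growth factor, was the member besides ESM1 whose cytarabine response differed most plainly between lines. In MUT it went from 24.3, 21.6 and 23.4 CPM untreated to 32.4, 34.95 and 33.9 CPM treated, without overlap. In WT it went the other way, from 33.5, 32.8 and 35.5 CPM to 28.3, 28.3 and 30.6 CPM, also without overlap. In EV it went from 23.0, 21.5 and 23.1 CPM to 23.6, 29.2 and 26.6 CPM. On the log2 scale cytarabine changed FGF2 by 0.55 in MUT (SE 0.0811, adjusted p 1.2e-05, edgeR), -0.22 (SE 0.0800, adjusted p 0.0266) in WT and 0.23 (SE 0.0826, adjusted p 0.0255) in EV.

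The difference between the MUT and WT effects on FGF2 was 0.77 (SE 0.114, adjusted p 0.00307, edgeR interaction contrast), with all 3 treated MUT libraries above and all 3 treated WT libraries below their own untreated ones. It was the 1 member of 5 called in this contrast, where 1.00% of all genes were called, and it remained called in every alternative tried, at 0.69 to 0.84. For WT against EV the FGF2 difference was -0.45 (SE 0.115, adjusted p 0.137) and for MUT against EV 0.32 (SE 0.116, adjusted p 0.203). In these 2 contrasts 0 of the 5 members were called by edgeR's test. Of all genes, that test called 0.285% in the first of these contrasts and 0.214% in the second. In each, 2 of 5 had an unadjusted p under 0.05 in edgeR. The share of all genes at that level is not given, so this count is not read as a result about the members. DESeq2 called 0 and 1 of the members. Of all 18226 genes it called 88 higher and 50 lower in the first contrast and 185 and 369 in the second. The 1 that DESeq2 called for MUT against EV was VEGFB, at -0.43, and it was also called by edgeR without untreated MUT replicate 1, at -0.48. In a fit of the 4 EV and WT groups alone FGF2 (-0.46) and VEGFB (-0.36) were called for WT against EV. That fit called 165 of all its genes higher and 113 lower.

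The 2 smaller FGF2 effects were less secure. The EV effect was no longer called without untreated EV replicate 2 (0.20), treated EV replicate 2 (0.16) or treated EV replicate 3 (0.23), nor with the authors' scaling factors (0.16) or with no filter on low counts (0.21). The WT effect was no longer called without untreated WT replicate 1 (-0.23) or 3 (-0.19), or without treated WT replicate 1 (-0.20) or 2 (-0.21). It also missed the threshold with upper-quartile factors (-0.18) and with total counts alone (-0.04). A minimum log2 fold change of 0.5 removes both calls. FGF2 also overlaps NUDT6 on the opposite strand over 9541 bases and the antisense gene AC021205.3, and the sources do not state if counting was stranded. No FGF2 value was a whole number in the deposited table. NUDT6 had a mean of 65.5 counts, against 550 for FGF2, and log2 fold changes of 0.29, -0.18 and 0.19 in EV, WT and MUT. Reads of the partner genes cannot be told apart from those of FGF2 here.

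**Figure D3:**
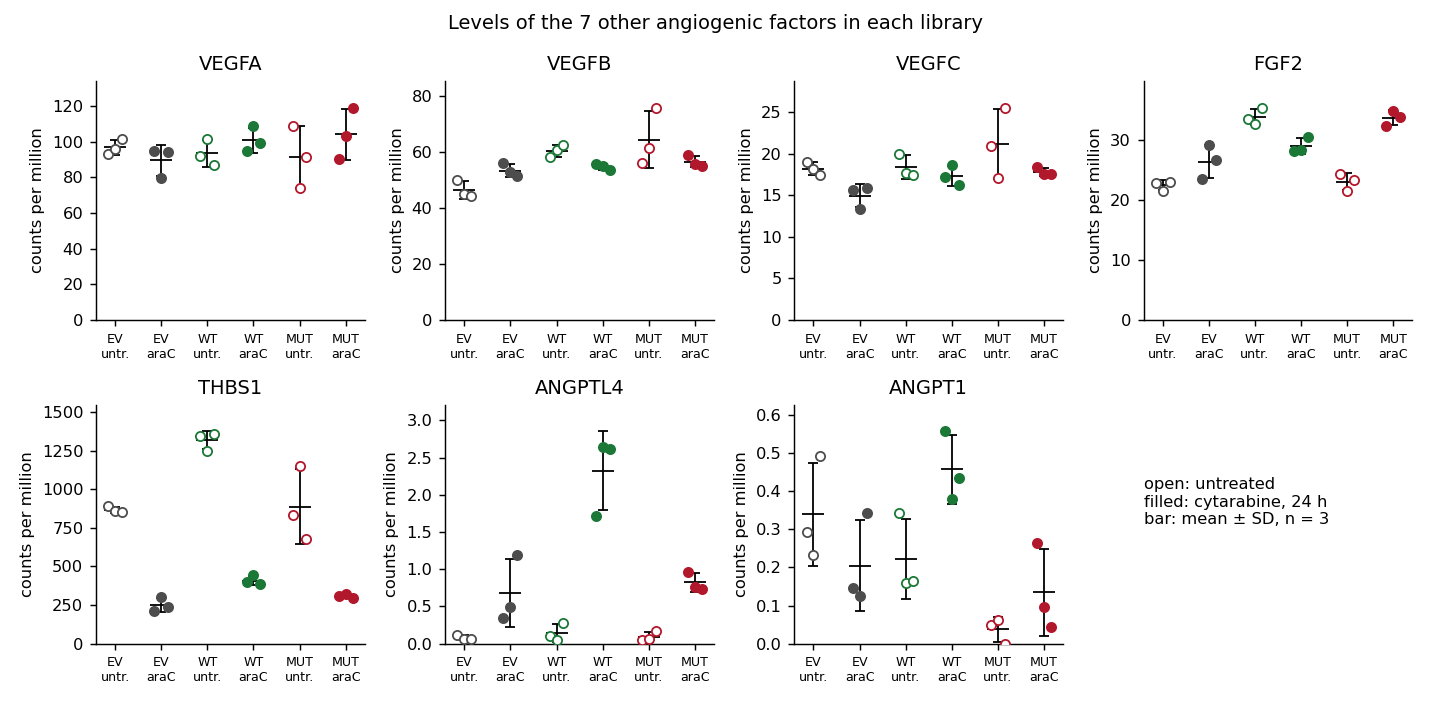
Level in CPM (y axis, linear from 0, own scale in each panel) of the 7 other members in each of the 18 libraries by line and treatment (x axis), with bars the mean and SD of 3 replicates. FGF2 rises with cytarabine in MUT and falls in WT, THBS1 falls in all 3 lines, and ANGPTL4 lies near 0 in all untreated libraries.

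FGF2 also differed between the lines themselves. Untreated WT libraries lay above all EV and MUT ones, at a log2 difference of 0.59 from EV (SE 0.0819, adjusted p 6.0e-05, edgeR), and MUT minus WT was -0.55 (SE 0.0815, adjusted p 9.2e-05). MUT and EV differed by 0.04 (SE 0.0836, adjusted p 0.794) without drug. With drug MUT exceeded EV by 0.35 (SE 0.0801, adjusted p 0.00583), while WT against EV was 0.14 (adjusted p 0.274) and MUT against WT 0.22 (SE 0.0795, adjusted p 0.0618), called in 8 of the alternatives. FGF2 therefore ranked highest in untreated WT and treated MUT, at 33.9 and 33.8 CPM, 2 groups that overlapped.

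THBS1 (chromosome 15, 39581079 to 39599467, plus strand), the thrombospondin that inhibits angiogenesis, fell after cytarabine in every line. Its levels were 889, 856 and 855 CPM in untreated EV and 212, 299.7 and 239 CPM in treated EV. In WT they were 1345, 1250 and 1355 CPM untreated and 398, 444 and 384 CPM treated. In MUT they were 831, 1152 and 681 CPM untreated and 306, 322 and 296 CPM treated. No treated library of any line reached the lowest untreated one. On the log2 scale the change was -1.79 in EV (SE 0.141, adjusted p 7.2e-09, edgeR), -1.69 (SE 0.140, adjusted p 1.4e-08) in WT and -1.53 (SE 0.140, adjusted p 2.9e-08) in MUT. The median over all genes was 0.05, 0.03 and 0.05. The 3 falls did not differ at the threshold, with differences of 0.11 (SE 0.194) for WT minus EV, 0.27 (SE 0.194) for MUT minus EV and 0.16 (SE 0.194) for MUT minus WT and adjusted p of 0.919, 0.531 and 0.749. The fall was called under every alternative in all 3 lines, between -1.94 and -1.27.

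THBS1 stood higher in WT than in EV, with a log2 difference of 0.60 (SE 0.137, adjusted p 0.00594, edgeR) untreated and 0.71 (SE 0.138, adjusted p 0.00142) treated, with no overlap in either condition. MUT minus WT was -0.57 (SE 0.137, adjusted p 0.00575) untreated. That value was -0.38 without untreated MUT replicate 3, -0.77 without replicate 2, and was not called in a fit of only those 2 groups (-0.58, adjusted p 0.0811). With drug MUT minus WT was -0.41 (adjusted p 0.0432), a call lost with a minimum log2 fold change of 0.5 and in 12 of the 18 fits that left out 1 library, including every library of treated WT and treated MUT. MUT and EV were not called apart, at 0.04 (adjusted p 0.892) untreated and 0.30 (adjusted p 0.162) treated, although the treated value was called without treated EV replicate 2 (0.45) or without untreated MUT replicate 2 (0.29). THBS1 overlaps the intronic gene AC037198.1, the antisense gene AC037198.2 and FSIP1, the last with a mean of 23.7 counts, against 12567 for THBS1.

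Among the 5 tested members without ANGPTL4, 3 were called between WT and EV untreated (VEGFB, FGF2 and THBS1, all higher in WT), where 11.7% of all genes were called in either direction. For MUT against EV untreated 1 was called (VEGFB), with 19.9% of all genes, and for MUT against WT 2 were called (FGF2 and THBS1, both lower in MUT), with 21.2%. With drug, 1 was called for WT against EV (THBS1, higher in WT) against 16.5% of all genes. For MUT against EV 1 was called (FGF2) against 14.0%, and for MUT against WT 1 (THBS1, lower in MUT) against 19.8%.

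ANGPTL4 (chromosome 19, 8363289 to 8374374, plus strand), a secreted inhibitor of lipoprotein lipase that acts on vessel permeability and is a target of PPAR receptors and of hypoxia, was nearly silent without drug. Its counts were 2, 1 and 1 in untreated EV, 2, 1 and 5 in untreated WT and 1, 1 and 3 in untreated MUT. After cytarabine they were 7, 8 and 28 in EV, 37, 49 and 54 in WT and 22, 16 and 17 in MUT. All treated libraries lay above all untreated ones of their own line. With counts pooled over the libraries of a group and scaled by library size, the ratio of treated to untreated was 9.07 (95% interval 3.30 to 34.8, exact binomial) in EV, 16.6 (8.18 to 39.1) in WT and 8.81 (3.56 to 28.2) in MUT. These intervals cover counting error alone. Because ANGPTL4 passed the filter on low counts only through groups in which it was high, its p-values come from a fit with no such filter. There the log2 fold changes were 3.02 (SE 0.658, adjusted p 0.00082, edgeR) in EV, 3.99 (SE 0.540, adjusted p 3.2e-06) in WT and 3.03 (SE 0.617, adjusted p 0.00034) in MUT. The differences between these effects could not be told from 0 at this depth.

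Among treated cells the ANGPTL4 level was highest in WT. The group means were 2.33 ± 0.527 CPM (SD, n = 3) in treated WT, 0.680 ± 0.455 in treated EV and 0.825 ± 0.124 in treated MUT, and the lowest treated WT library, at 1.72 CPM, exceeded the highest of the others, at 1.20 CPM. In the fit with no filter on low counts the log2 difference between WT and EV was 1.75 (SE 0.434, adjusted p 0.00993, edgeR), and the ratio of pooled counts was 3.21 (2.26 to 4.63). MUT minus WT was -1.50 (SE 0.424, adjusted p 0.0201), a ratio of 0.358 (0.257 to 0.493). Single libraries were left out only in fits with the filter, where these values were 1.73 and -1.49. Those fits held ANGPTL4 only through treated groups in which it was high, so no p-value from them is given. Even so, WT against EV lost its call without treated WT replicate 2. MUT against WT lost it without treated WT replicate 2 or 3 or treated MUT replicate 2 or 3. With 1 library left out, WT minus EV ran from 1.40 to 2.46 and MUT minus WT from -1.67 to -1.38. Without treated EV replicate 3 the cytarabine effect in EV was 2.30 rather than 3.03 and treated WT minus EV was 2.46. Without untreated WT replicate 3 the WT effect was 4.82 rather than 3.99, and without untreated MUT replicate 3 the MUT effect was 3.71 rather than 3.05. ANGPTL4 shares 2 bases with RAB11B-AS1.

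ANGPT1 (minus strand, protein-coding), the ligand that activates TIE2, was at or near the detection limit. Counts were 5, 4 and 8 in untreated EV, 7, 3 and 3 in untreated WT and 1, 1 and 0 in untreated MUT. After cytarabine they were 3, 2 and 8 in EV, 12, 7 and 9 in WT and 6, 2 and 1 in MUT. The pooled ratio of treated to untreated was 2.04 (95% interval 1.02 to 4.29, exact binomial, counting error alone) in WT, 0.645 (0.288 to 1.41) in EV and 3.61 (0.746 to 34.3) in MUT. With no filter on low counts, untreated MUT lay below untreated EV (log2 fold change -2.97, adjusted p 0.0312, edgeR), on totals of 2 and 17 counts, and none of the other 11 contrasts of ANGPT1 was called.

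Levels of different genes were compared per kilobase of exonic sequence, from the GENCODE annotation. In untreated EV THBS1 was highest at 94.6 CPM per kb, followed by VEGFB at 23.5, VEGFC at 6.95, VEGFA at 6.71, FGF2 at 3.31 and ESM1 at 2.69, with ANGPT1 and ANGPTL4 at 0.0476 and 0.0319. In treated WT ESM1 reached 15.1 CPM per kb, above VEGFA at 6.99 and VEGFC at 6.62 and below VEGFB at 27.7 and THBS1 at 44.6. The exonic length used is the union over all annotated transcripts, so a gene with many long variants, such as VEGFA, is set low by it.

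The genes around these members were read from 8 pathway lists, without the members themselves. These lists were chosen with earlier results of these data known. Their shares beside those of all genes are therefore a description, and no list was tested as a set. For these counts the background is all genes tested, of which cytarabine raised 26.1% (EV), 26.3% (WT) and 30.4% (MUT) and lowered 22.9%, 22.7% and 25.9%. Of the VEGF receptors and further ligands 5 of 7 were tested, and 4 of these rose in every line, with a median log2 fold change of 1.35, 1.06 and 1.36 in EV, WT and MUT. PGF, the placental growth factor that binds FLT1, went from 9.75 ± 0.754 to 51.5 ± 2.93 CPM (SD, n = 3) in EV, from 5.46 ± 0.488 to 46.0 ± 4.05 in WT and from 8.98 ± 2.31 to 40.9 ± 2.87 in MUT. Its log2 fold changes were 2.40 (SE 0.130), 3.07 (SE 0.137) and 2.18 (SE 0.130), and the MUT effect was 0.89 below that of WT (difference -0.89, adjusted p 0.0282, edgeR). FLT1 rose by 2.26, 2.76 and 3.24, from 2 to 17 counts per untreated library. FLT4, the VEGFC receptor, rose by 1.35, 1.06 and 1.36. NRP1, a co-receptor for VEGF and semaphorins, rose by 0.34 in EV, 0.61 in WT and 1.10 in MUT, and the MUT effect exceeded that of EV by 0.75 (SE 0.122, adjusted p 0.0166). NRP1 started lower in MUT, at -0.97 against EV untreated (adjusted p 7.3e-07). NRP2 was not called (0.75, 0.32 and 0.35), and KDR and VEGFD had at most 7 and 5 counts in any library. So PGF rose while VEGFA, VEGFB and VEGFC were not called.

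Of 14 tested genes of FGF signalling, 6 rose and 2 fell in EV, 5 and 2 in WT and 6 and 2 in MUT. The risers were 42.9%, 35.7% and 42.9% of the list and the fallers 14.3% in each line, against 26.1%, 26.3% and 30.4% of all genes called higher and 22.9%, 22.7% and 25.9% called lower. The receptor FGFR3 rose by 1.78, 1.47 and 1.68, FGFR1 by 0.58, 0.71 and 0.61, and the heparan sulfate carrier SDC1 by 1.06, 1.29 and 1.11. The related carrier SDC4 fell by 0.58, 0.57 and 0.82 on the log2 scale. The ligands FGF5 and FGF1 stood higher in untreated WT than in EV, by 1.39 (SE 0.145, adjusted p 2.1e-06, edgeR) and 0.56 (SE 0.102, adjusted p 9.7e-04), as FGF2 did. With drug FGF5 was 1.36 and FGF1 0.66 higher in WT than in EV, while FGF2 was not called.

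Of 7 tested genes of the angiopoietin list, 3 rose in EV, 4 in WT and 6 in MUT. These are 42.9%, 57.1% and 85.7%, against 26.1%, 26.3% and 30.4% of all genes. The risers in MUT include TIE1, which reached the level of the low-count filter only in treated libraries, so its call carries no weight. Leaving out 1 library gave 2 to 4 risers in EV, 3 to 4 in WT and 5 to 6 in MUT. ANGPTL2, a relative of ANGPTL4, rose by 1.06, 1.61 and 0.85 and was lower in WT than in EV in both conditions, at -2.06 (SE 0.245, adjusted p 1.0e-05, edgeR) untreated and -1.51 treated. ANGPTL2 was thus low in the line in which treated ANGPTL4 was high. CCM2L rose by 1.62, 1.63 and 1.70. Among 19 tested relatives of THBS1, its receptors and other inhibitors, 11 rose and 2 fell in EV, 9 and 1 in WT and 9 and 1 in MUT, so that 57.9%, 47.4% and 47.4% rose, against 26.1%, 26.3% and 30.4% of all genes. THBS2 rose by 1.38, 1.58 and 1.19, THBS4 by 1.73, 1.12 and 1.79, and the clearance receptor LRP1 by 1.36, 1.47 and 1.81, where THBS1 fell. COL18A1, the source of endostatin, rose by 0.91, 1.19 and 1.23.

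Of 25 other secreted angiogenic factors and proteases 8 rose and 4 fell in EV, 7 and 5 in WT and 9 and 4 in MUT. The risers, 32%, 28% and 36% of the list, and the fallers, 16%, 20% and 16%, compare with 26.1%, 26.3% and 30.4% of all genes called higher and 22.9%, 22.7% and 25.9% called lower. MMP14, a membrane-bound matrix protease, rose by 1.01, 0.94 and 1.08, PTN by 0.79, 0.70 and 1.49 and PDGFD by 0.78, 0.97 and 0.92, while MMP9 fell by 1.16, 0.89 and 0.77. PDGFB was higher in WT than in EV by 1.76 (SE 0.225, adjusted p 2.5e-05, edgeR) untreated and 2.07 treated. The TGFB2 effect in MUT exceeded that in WT by 0.60 (SE 0.101, adjusted p 0.00737).

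Genes of the hypoxia response and of PPAR signalling, both known to act on ANGPTL4, were counted next. Of 23 hypoxia-response genes and oxygen sensors 5 rose and 11 fell in EV, 4 and 9 in WT and 4 and 13 in MUT, so that 47.8%, 39.1% and 56.5% fell, against 22.9%, 22.7% and 25.9% of all genes, with medians of -0.14, -0.05 and -0.26. ENO1, a glycolytic enzyme, fell by 0.91, 0.83 and 1.23, whereas EPAS1, which encodes HIF-2alpha, rose by 1.32, 1.57 and 1.64 and PFKFB4 by 1.15, 1.21 and 0.47. The MUT effect lay below that of WT for PFKFB4 (difference -0.74, adjusted p 0.0289, edgeR) and LDHA (-0.57, adjusted p 0.0289). VEGFA, itself a hypoxia target, was not called. Of 10 PPAR receptors and targets 7 rose in EV, 7 in WT and 6 in MUT, which is 70%, 70% and 60% beside 26.1%, 26.3% and 30.4% of all genes, with medians of 0.71, 0.59 and 0.64. PDK4 rose by 2.42, 1.95 and 2.72, LPL, the enzyme that ANGPTL4 inhibits, by 1.59, 1.69 and 2.23, PLIN2 by 0.89, 0.80 and 0.53 and PPARG by 0.87, 0.66 and 0.75. In treated cells PDK4 was lower in WT than in EV, at -1.58 (SE 0.269, adjusted p 4.2e-04), where ANGPTL4 was higher. Whether either pathway acted on ANGPTL4 in these cells was not tested.

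ESM1 carries a dermatan sulfate chain, and the 18 genes of its synthesis were all tested. There were 9 risers and 3 fallers in EV, 10 and 2 in WT, and 10 and 4 in MUT. The risers were 50%, 55.6% and 55.6% of the list, against 26.1%, 26.3% and 30.4% of all genes, and the fallers 16.7%, 11.1% and 22.2%, against 22.9%, 22.7% and 25.9%. The list had medians of 0.17, 0.23 and 0.28. CSGALNACT1, which starts the chondroitin chain, rose by 2.01, 2.56 and 2.54, the epimerase-like DSEL by 0.75, 0.67 and 1.04, CHST11 by 0.58, 1.02 and 0.57, and B3GAT3 by 0.68, 0.82 and 0.60. In untreated WT, where ESM1 was higher than in EV, DSE, the epimerase that makes dermatan from chondroitin sulfate, was lower than in EV, at -0.74 (SE 0.089, adjusted p 1.2e-05, edgeR).

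**Figure D4:**
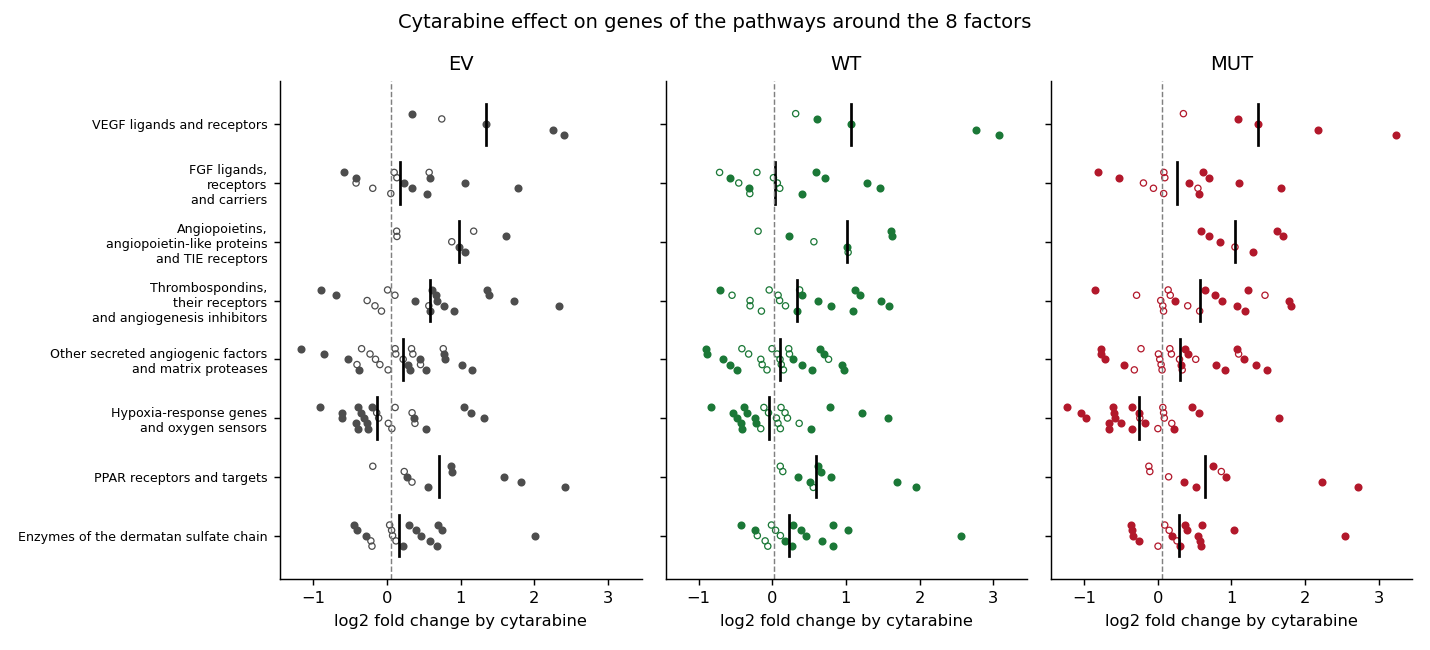
Log2 fold change by cytarabine (x axis, same scale in the 3 panels for EV, WT and MUT) of every tested gene in the 8 pathway lists (y axis), filled where called and open where not, with black bars the list medians and the dashed line the median of all genes. The VEGF list has medians of 1.35, 1.06 and 1.36, and the hypoxia list is the only one whose median lies below 0 in all 3 lines.

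Of 13681 genes whose average log2 CPM reached 1, those with a profile most like that of ESM1 over the 18 libraries were CCND2 (Pearson r 0.969), BTBD10 (0.958), NCEH1 (0.951), LEPROTL1 (0.934) and CNTN1 (0.925). Over the 6 group means NCEH1 (0.990), CCND2 (0.990), TRIM35 (0.980), BTBD10 (0.976) and RGS5 (0.974) were most alike. By Spearman's rho CNTN1 (0.979), ZEB1-AS1, NLK, ALG2 and COX15 led instead, so CNTN1 alone was in both sets of 5 from the 18 libraries. The Spearman set was named after its values were seen. These correlations describe the same libraries that share line, treatment and depth, and the genes were picked for their likeness. Their changes were smaller than that of ESM1. CCND2, a D-type cyclin, was at 215 CPM in untreated and 282 CPM in treated WT, 168 and 171 CPM in EV and 146 and 158 CPM in MUT. None of the other tested members resembled ESM1 to this degree. The highest r was 0.54 for ANGPTL4, which was also highest in treated WT, and the other 5 lay between -0.14 and 0.29.

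**Figure D5:**
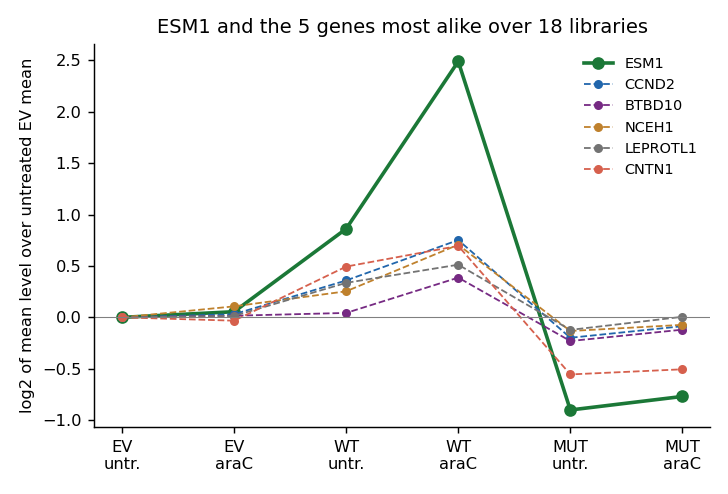
Log2 of each group's mean level over the untreated EV mean (y axis) for ESM1 (thick line) and the 5 genes with the highest Pearson r with it over 18 libraries (dashed lines), by line and treatment (x axis); lines join groups only to guide the eye. All 6 genes are highest in treated WT and lowest in a MUT group, with ESM1 spanning the widest range.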

How the data were processed

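RNA of 18 U2OS libraries in 6 groups of 3 was sequenced. STAR 2.6.1d, CASAVA and the build hg38 are named per the submitters' processing notes, and how counts were assigned, strand included, is not given in the sources used here. The authors deposited estimated counts per gene symbol, of which 71.1% were whole (to within 1e-06), and a normalized signal, which per the deposited values is a factor for each library times the count and served here only to recover those factors. No column of another sample was present. Members and gene lists were chosen with earlier results of these data known. Estimated counts were rounded and fitted in edgeR 4.0.16 (R 4.3.3) with TMM factors, filterByExpr (minimum count 10) and 1 coefficient per group in a quasi-likelihood fit of all 18 libraries. Adjusted p-values are Benjamini-Hochberg over 18226 genes, and SE is the absolute log2 fold change over the square root of F. CPM uses TMM-scaled library sizes; log2 CPM used a prior count of 2.

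Per list, genes were named where they were called in all 3 lines in 1 direction with the largest mean change (up to 4), or were among the 2 largest called in a line or interaction contrast, at a mean log2 CPM of at least 1; genes of lists of 10 or fewer could be named with their level. Replicates differed by more than sampling noise in every pair (chi-square per degree of freedom 2.21 to 35.8). They are labelled biological replicates, with no further source, and each construct is held by 1 line. The p-values therefore do not cover variation between separately made lines. The fit shares its estimates of spread over all 6 groups, whose own coefficients of variation ran from 0.0397 to 0.216. An SE in a contrast with untreated MUT thus need not show that group's own spread. THBS1 had an SD of 241 CPM in untreated MUT and 19.3 CPM in untreated EV. Its SE was 0.137 both for untreated MUT minus EV and for untreated WT minus EV. Alternatives were RLE, upper-quartile, total-count and authors' scaling, other filters, DESeq2 1.42.0, only the groups compared, a replicate block, a fold minimum and each library left out. ANGPTL4 passed the filter only through 2 treated groups, so its p-values are from the fit without a filter. The fit was tested on simulated data with the same spread in all groups. Changes were set only in treated WT, in genes with a mean of at least 50 counts. That check does not bear on the wider spread of untreated MUT, nor on ANGPT1 and ANGPTL4 at their low counts.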

Additional observations from a re-analysis of the deposited data

Results flagged for a closer look

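The cytarabine response of FGF2 differed between the mutant and the wild-type line. The log2 fold change was 0.55 in MUT and -0.22 in WT, a difference of 0.77 (SE 0.114, adjusted p 0.00307, edgeR's quasi-likelihood test of the interaction). All 3 treated libraries lay above the untreated ones in MUT and all 3 lay below them in WT. The cause was not tested.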

How the results depend on the processing

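The falls of THBS1 and the FGF2 rise in MUT kept their direction and their call in every alternative, and ANGPTL4 kept its direction in each line wherever it was tested. The counts of members in this paragraph are of 6 and include ANGPTL4, which passed the filter only through groups in which it was high. They show how calls moved with the setting and are no support for a response of the members. Without ANGPTL4 the main fit called 2 of 5 after cytarabine in each line. The count of members called after cytarabine in MUT was 5 instead of 3 with RLE factors, DESeq2 and the authors' factors, the last chosen after seeing the data. Of 18226 genes, these settings called 5181, 5155 and 4817 higher and 5121, 5111 and 5523 lower, against 5543 and 4714 in the main fit. With only the groups compared, 2 members were called for the WT minus EV difference of effects, 0 for untreated MUT minus EV and 1 for untreated MUT minus WT. Over all genes those fits called 165, 415 and 650 higher and 113, 520 and 521 lower. DESeq2 called 1 for the MUT minus EV difference, where it called 185 of all genes higher and 369 lower. With an absolute log2 fold change of at least 0.5, 0 were called for untreated and for treated MUT minus EV and 1 for treated MUT minus WT, and with a mean of at least 50 counts 1 for treated WT minus EV. The fit with that mean called 1180 of all its genes higher and 1608 lower. The share of all genes is not given for the fold minimum or for the fits that left out 1 library. Leaving out 1 library gave 2 to 5 members for the effect in EV, 3 to 5 in MUT, 0 to 1 for the MUT minus EV difference, 1 to 2 for untreated MUT minus EV and for treated WT minus EV and MUT minus EV, and 0 to 3 for treated MUT minus WT.

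None of the values that turned direction was called by the main test. With total counts alone, which moved the median of all genes by 0.19, 0.18 and 0.26 in EV, WT and MUT and raised the share of higher calls to 74.2%, 73.9% and 76.7%, the cytarabine effect was 0.080 for VEGFA in EV, 0.039 and 0.077 for VEGFB in WT and MUT, and 0.095 and 0.012 for VEGFC in WT and MUT. With that scaling the MUT minus WT difference of VEGFB was 0.039, untreated MUT minus EV was -0.039 for FGF2 and -0.043 for THBS1, and untreated MUT minus WT was -0.013 for VEGFB. The MUT minus EV difference of VEGFC was -0.0067 with RLE factors, -0.0052 with upper-quartile factors, -0.013 with a mean of at least 50 counts and -0.0075 in DESeq2. That of ANGPTL4 was -0.014, -0.0086 and -0.028 with RLE, upper-quartile and DESeq2. Untreated WT minus EV of VEGFC was -0.0020 with the authors' factors, and untreated MUT minus WT of VEGFA was 0.013, 0.012 and 0.014 with RLE, DESeq2 and the authors' factors.

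Leaving out 1 library gave these ranges. For differences of effects they were -0.0019 to 0.26 (THBS1, WT minus EV), -0.14 to 0.15 (VEGFC) and -0.35 to 0.75 (ANGPTL4) for MUT minus EV, and -0.092 to 0.22 (VEGFA), -0.13 to 0.063 (VEGFB) and -0.029 to 0.36 (THBS1) for MUT minus WT. Untreated WT minus EV ran from -0.049 to 0.054 (VEGFC) and -0.050 to 1.14 (ANGPTL4). Untreated MUT minus EV ran from -0.22 to 0.080 (VEGFA), -0.0014 to 0.11 (FGF2), -0.17 to 0.22 (THBS1) and -0.44 to 0.60 (ANGPTL4). Untreated MUT minus WT ran from -0.17 to 0.14 (VEGFA), -0.015 to 0.18 (VEGFB) and -1.20 to 0.28 (ANGPTL4). Treated MUT minus EV of ANGPTL4 ran from -0.082 to 0.98, and treated MUT minus WT from -0.061 to 0.14 (VEGFA) and -0.0053 to 0.095 (VEGFC). The causes were not tested. Same-numbered replicates showed no consistent pairing (correlations of their deviations -0.176 to 0.326). A replicate block left the members called, ANGPTL4 included, at 3 in each of EV, WT and MUT and changed no other count of members. Over all genes that fit called 4735, 4761 and 5556 higher and 4245, 4176 and 4698 lower in EV, WT and MUT. Some list counts moved with 1 library. In EV, 5 other secreted factors rose without untreated EV replicate 1 or treated EV replicate 3, and 7 fell, in EV and in MUT, without untreated MUT replicate 2. In WT, 1 FGF gene fell without untreated or treated replicate 1 and 1 dermatan sulfate gene without treated replicate 1, and in MUT 2 of the latter fell without treated replicate 2. In EV, 1 gene of the thrombospondin list fell in DESeq2 and in 6 of the leave-one-out fits. Depth limits ANGPT1 and ANGPTL4, with at most 12 and 54 counts.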
